A study of Mus musculus with 49 samples.

Results

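The 37 genes of the mouse mitochondrial genome were described across tumor-bearing mice that had received iron oxide nanoparticles or saline. They were taken as every gene in the count table whose symbol starts with mt-, which gave 13 genes for proteins, 2 for ribosomal RNAs (rRNAs) and 22 for transfer RNAs (tRNAs), out of 55487 genes. In the table, 49 libraries came from 6 HuHER2 transgenic mice, which carry the human receptor gene HER2. The groups were nanoparticle-associated cells from BP mice (liver, spleen, tumor and bone marrow with 3 libraries each, and 1 lymph node library of BP mouse 2), bulk tissue of the 3 BP mice and bulk tissue of the 3 PBS mice. Both kinds of bulk tissue covered 6 organs, namely liver, lung, spleen, lymph node, bone marrow and tumor, with 1 library per mouse and organ. BP is the labels' code for the iron oxide nanoparticles, and each BP mouse received 5 mg Fe in a single intravenous injection. PBS mice received buffered saline. All 6 mice, controls included, bore a palpable mammary tumor, and palpation had begun at 7 months of age. The design text places the collection at day 7, while a protocol label names 31 days. The sources used here name neither the promoter that drives the transgene nor the sex of the mice.

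Nanoparticle-associated cells came from organ sections that were digested to single cells and held back by a magnet, whereas bulk tissue was not digested. Digestion, magnetic selection, nanoparticle uptake and cell type therefore cannot be told apart in any comparison of these cells with bulk tissue. In bulk tissue, fewer cells of a type and less RNA per cell cannot be told apart either.

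Mitochondria keep a small circular genome in many copies per cell. Its proteins are core subunits of the respiratory chain, in which complex I takes electrons from NADH, complex III passes them to cytochrome c, complex IV hands them to oxygen, and complex V uses the proton gradient so built to make ATP. Most subunits of these complexes are encoded in the nucleus and imported, so that each complex is assembled from genes of both genomes. The mitochondrial genome is transcribed from both strands into long precursors, from which the tRNAs are cut out and the mRNAs and rRNAs between them released.

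Several sequences in the table bear on what a mitochondrial count means, because the nuclear genome holds a near-identical copy of part of the mitochondrial one. On mouse chromosome 1 (GRCm38, GENCODE M21 annotation), 7 unprocessed pseudogenes lie within 4663 bases, at chr1:24611535-24616197, all on the minus strand. They matched mt-Nd4l, mt-Nd3, mt-Co3, mt-Atp6 and mt-Co2, the first 876 of the 1378 bases of mt-Nd4 and the last 483 bases of mt-Co1 at 99.71 to 100% identity. In 5 of the pairs there was no mismatch, and mt-Co1 and mt-Nd3 had 1 each. Those single differences are shown here in capitals, on the coding strand of each gene. Within the matched bases, they are the positions at which a read could tell the pair apart. Counted from 1 at the start of the mitochondrial gene, with its base first, they were A1066T in mt-Co1 and T3C in mt-Nd3.
mt-Co1 (chrM:6390-6413, plus strand): ggaAttgttttatccaactcatcc
Gm29216 (chr1:24616165-24616188, minus strand): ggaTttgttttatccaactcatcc
mt-Nd3 (chrM:9459-9481, plus strand): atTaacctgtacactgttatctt
Gm28438 (chr1:24613097-24613119, minus strand): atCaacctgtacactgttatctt

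The start of mt-Atp6 shows the other case, in which the copy repeats the gene letter for letter and no read inside it can be placed by sequence.
mt-Atp6 (chrM:7927-7962, plus strand): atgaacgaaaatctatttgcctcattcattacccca
Gm10925 (chr1:24614616-24614651, minus strand): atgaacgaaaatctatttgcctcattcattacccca

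Mitochondrial genes also overlap one another. The end of mt-Atp8 and the start of mt-Atp6, both subunits of the ATP synthase (complex V), share the 43 bases in capitals, so a read that lies inside them belongs to both.
mt-Atp8 and mt-Atp6 (chrM:7907-7989, plus strand): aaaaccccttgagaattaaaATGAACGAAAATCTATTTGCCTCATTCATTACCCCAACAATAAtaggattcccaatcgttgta

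In the same way mt-Nd4l and mt-Nd4 share 7 bases on 1 strand, and mt-Nd5 and mt-Nd6 share 14 bases on opposite strands. The strand setting of the counting is not named in those sources, so counts of mt-Nd6, the one mRNA on the strand opposite to the other 12, may hold reads from the opposite transcript.

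The values were expected counts per gene as deposited, in which reads that match several genes had been divided by estimation. Library totals ran from 9362264 to 19734849 counts, and a count of 0 allows up to 3 counts, or 0.152 to 0.32 CPM (counts scaled to the library total). Floors and intervals cover counting error only. Replicate libraries of a group came from different mice, and no pair of them was alike to within sampling noise. In comparisons within 1 organ, p-values therefore rest on the spread between mice. Fits over several organs also treated the libraries of 1 mouse as independent, which they are not. The same holds for the main fits and exact tests of nanoparticle-associated cells against BP bulk tissue. Both groups there came from the same 3 mice. Several bulk libraries held transcripts typical of brown fat or skeletal muscle. Ucp1, the uncoupling protein of brown fat, stood at 878.74 CPM in bulk tumor of BP mouse 1 and at 1421.4 CPM in lymph node of PBS mouse 2, and Acta1, skeletal muscle actin, stood at 1408.9 CPM in bulk tumor of BP mouse 2. PBS liver of mouse 1 also stood apart in how counts were divided between mitochondrial genes and their copies.

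The 13 mRNAs and both rRNAs had counts in all 49 libraries, whereas the 22 tRNAs, which are 59 to 75 bases long, had 0 counts in each of the 49. One of them, mt-Tl1, the leucine tRNA gene that follows the large rRNA, was picked as an example after the counts were seen, since all 22 tied at 0, and is printed to show a gene with no counts between mt-Rnr2 and mt-Nd1, both of which had at least 17013 counts in every library.
mt-Tl1 (chrM:2676-2750, plus strand): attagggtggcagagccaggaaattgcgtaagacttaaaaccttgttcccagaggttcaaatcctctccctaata

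All counts described below are therefore those of 15 genes. The mitochondrial share of a library, the counts of these 15 genes as a percentage of all counts, had a median of 4.37% over the 49 libraries and ran from 1.80 to 57.2%.

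Compared per length, levels differed widely between genes of the same transcript. The highest median over the 49 libraries was that of mt-Co1, the catalytic subunit of cytochrome c oxidase (complex IV), at 8186 CPM per kilobase, followed by mt-Co2, which docks cytochrome c, at 6108, and mt-Co3 at 4887 CPM per kilobase. mt-Nd1 of complex I (4711 CPM per kilobase) and mt-Cytb, cytochrome b of complex III (4572), came next. At the low end were mt-Nd4l at 170 and mt-Nd3 at 540 CPM per kilobase, both short complex I genes and both among those with a nuclear copy. This order holds for counts as deposited only. With copies added, the median share of the 13 mRNAs moved from 4.49 to 10.3% for mt-Atp6, above mt-Nd1 (8.46%) and mt-Cytb (9.83%). That of mt-Nd3 moved from 0.345 to 1.25%, and that of mt-Nd4l from 0.115 to 0.429%. The rRNAs had medians of 990.0 CPM per kilobase (mt-Rnr1, the 12S rRNA of the small ribosomal subunit) and 2014 (mt-Rnr2, the 16S rRNA of the large subunit), below most mRNAs.

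The chromosome 1 copies took 11736856 counts in all, 16.8% of the counts of mitochondrial genes and copies together. How much of a pair went to the copy differed between genes. The copy took a median of 77.7% of the pair for mt-Nd3 (25.4 to 90.6% over 49 libraries), 77.1% for mt-Nd4l (3.84 to 89.1%), 65.8% for mt-Atp6 (8.21 to 81.6%), 49.4% for mt-Co3 (38.8 to 62.8%) and 31.3% for mt-Co2 (11.7 to 86.7%). For mt-Co1 it took 3.25% (1.38 to 22.4%), and for mt-Nd4 0.23%. PBS liver of mouse 1 gave the lowest value for mt-Nd4l and the highest for mt-Co2, and without it the ranges were 61.4 to 89.1% and 11.7 to 43.4%. It also gave the lowest values for mt-Nd3 and mt-Atp6, whose lower limits without it were 61.9 and 17.97%. The division made genes look more variable than their pairs. As deposited, mt-Atp6 had a coefficient of variation of 40.7% in its share of the 13 mRNAs over 49 libraries, against 9.38% with its copy added. The same step took mt-Nd3 to 27.7% with its copy, against 55.4% as deposited, and mt-Nd4l to 22.4%, against 73.9%. Levels below are as deposited unless copies are said to be added.

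**Figure D1:**
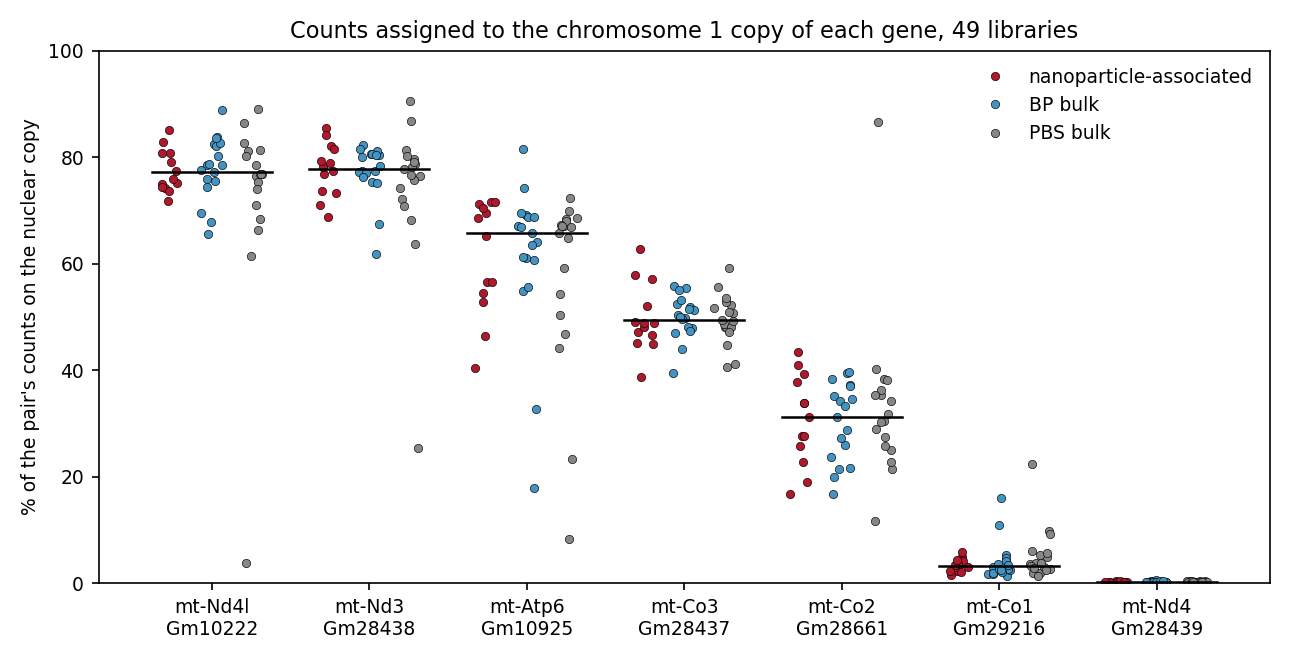
Each point is 1 of 49 libraries, and its height is the percentage of a pair's counts (mitochondrial gene plus its chromosome 1 copy) that was assigned to the copy; pairs run along the horizontal axis, colors mark nanoparticle-associated cells, BP bulk and PBS bulk, and black lines are medians over all libraries. The medians lie between 77.7% for mt-Nd3 and 0.23% for mt-Nd4, and 1 PBS library, PBS liver of mouse 1, lies far from the rest in mt-Nd4l, mt-Nd3 and mt-Co2.

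The largest difference was in liver. In nanoparticle-associated liver cells, mitochondrial genes held 48.2, 57.2 and 56.1% of all counts, against 5.80, 5.67 and 7.06% in bulk liver of the same 3 BP mice. All 3 libraries of these cells lay far above the bulk libraries, with no overlap. The shares averaged 53.8 ± 4.92% in nanoparticle-associated cells and 6.18 ± 0.77% in BP bulk liver (SD, n = 3 each), a difference of 47.6 percentage points and a ratio of 8.71. With 3 libraries against 3, the two-sided exact permutation test cannot give a p below 0.10, and it gave 0.10 here (0.526 after Benjamini-Hochberg adjustment over 100 tests of shares and ratios). With the nuclear copies added, the shares were 57.1, 68.0 and 66.4% in nanoparticle-associated cells, against 7.00, 6.89 and 8.49% in BP bulk liver.

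**Figure D2:**
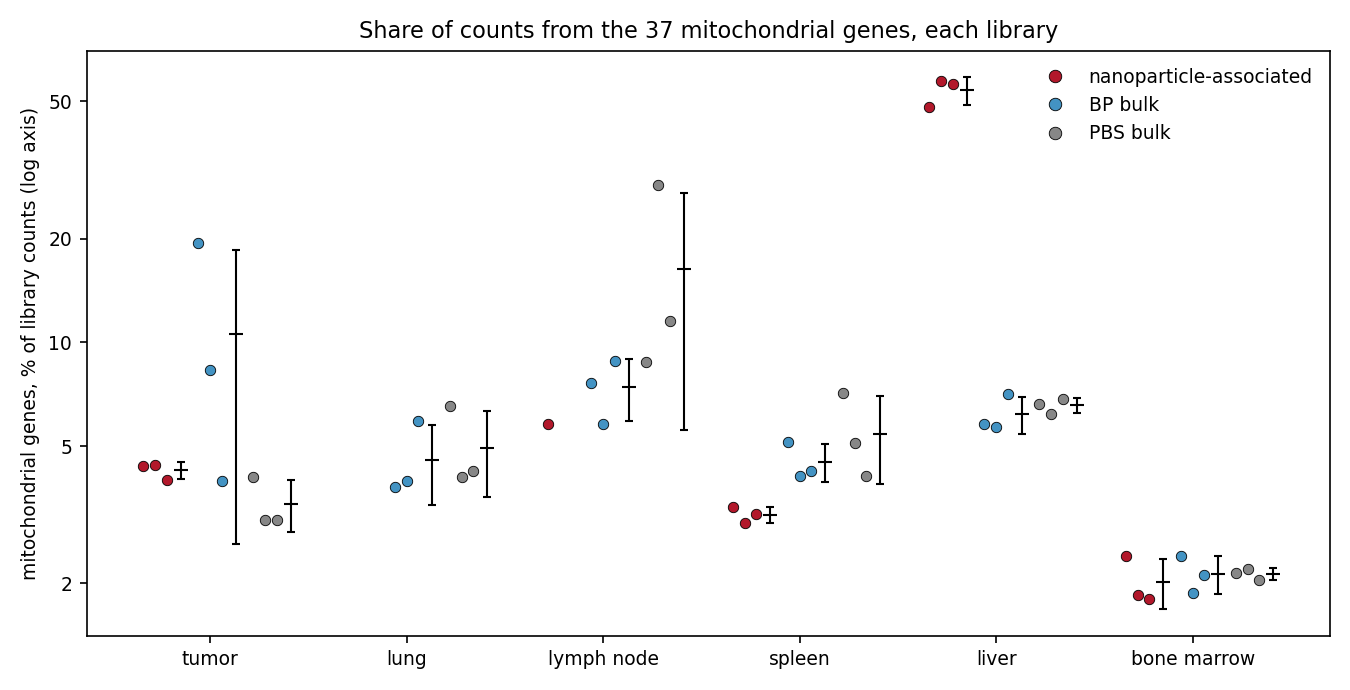
Each point is 1 library, and the vertical axis (logarithmic) gives the percentage of its counts from the 37 mitochondrial genes; libraries are grouped by organ, with nanoparticle-associated cells, BP bulk and PBS bulk from left to right, and bars give mean and SD for groups of 3. Nanoparticle-associated liver cells sit between 48.2 and 57.2%, above all other libraries, and bone marrow libraries lie lowest.

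All 13 mRNAs and both rRNAs were higher in nanoparticle-associated liver cells (edgeR quasi-likelihood test, adjusted p under 0.05, where 37.3% of the 13247 genes tested were called higher). The median log2 fold change of the 13 mRNAs was 4.03, against 0.01 over all genes tested. With library totals alone, which keep the mitochondrial reads in the denominator, the median was 3.14, the median over all genes moved to -0.80, and all 13 mRNAs were called.

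Among the complex I genes, mt-Nd1 stood at 46953, 51977 and 52344 CPM in nanoparticle-associated liver cells, against 5781, 4911 and 6481 CPM in BP bulk liver. Its log2 fold change was 4.03 ± 0.52 (SE; edgeR adjusted p = 9.886e-05), and the groups did not overlap. mt-Nd5, the last complex I gene along its strand, stood at 12105, 13066 and 14027 CPM in nanoparticle-associated cells, against 2902, 2425 and 3715 CPM in BP bulk liver. Its log2 fold change of 3.00 ± 0.40 (edgeR adjusted p = 0.0001202) was the smallest of the 13. mt-Nd6, on the opposite strand, stood at 2466, 3495 and 3327 CPM in nanoparticle-associated cells, against 615.9, 462.5 and 706.0 CPM in BP bulk liver. It had the second smallest log2 fold change, 3.29 ± 0.38 (edgeR adjusted p = 4.756e-05). The other complex I genes, mt-Nd2, mt-Nd3, mt-Nd4 and mt-Nd4l, had log2 fold changes of 3.64 to 4.17.

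mt-Cytb, the complex III gene, stood at 58940, 64532 and 69413 CPM in nanoparticle-associated liver cells, against 6716, 6108 and 8452 CPM in BP bulk liver. Of complex IV, mt-Co1 stood at 156728, 186891 and 185309 CPM in nanoparticle-associated cells, against 19006, 18458 and 22384 CPM in BP bulk liver. Its log2 fold change was 4.04 ± 0.71 (edgeR adjusted p = 0.000659). mt-Co2 and mt-Co3 had log2 fold changes of 4.50 ± 0.56 and 4.14 ± 0.52. Of complex V, mt-Atp6, which forms part of the proton channel, had the largest change of the 13, 4.63 ± 0.48 (edgeR adjusted p = 2.406e-05), and mt-Atp8 had 3.96 ± 0.31. mt-Rnr1 stood at 8429, 13134 and 11139 CPM in nanoparticle-associated cells, against 1070, 1340 and 1450 CPM in BP bulk liver, and mt-Rnr2 at 17954, 22773 and 20944 CPM in nanoparticle-associated cells, against 3186, 3931 and 3851 CPM in BP bulk liver. Their log2 fold changes were 4.01 ± 0.45 and 3.40 ± 0.44.

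**Figure D3:**
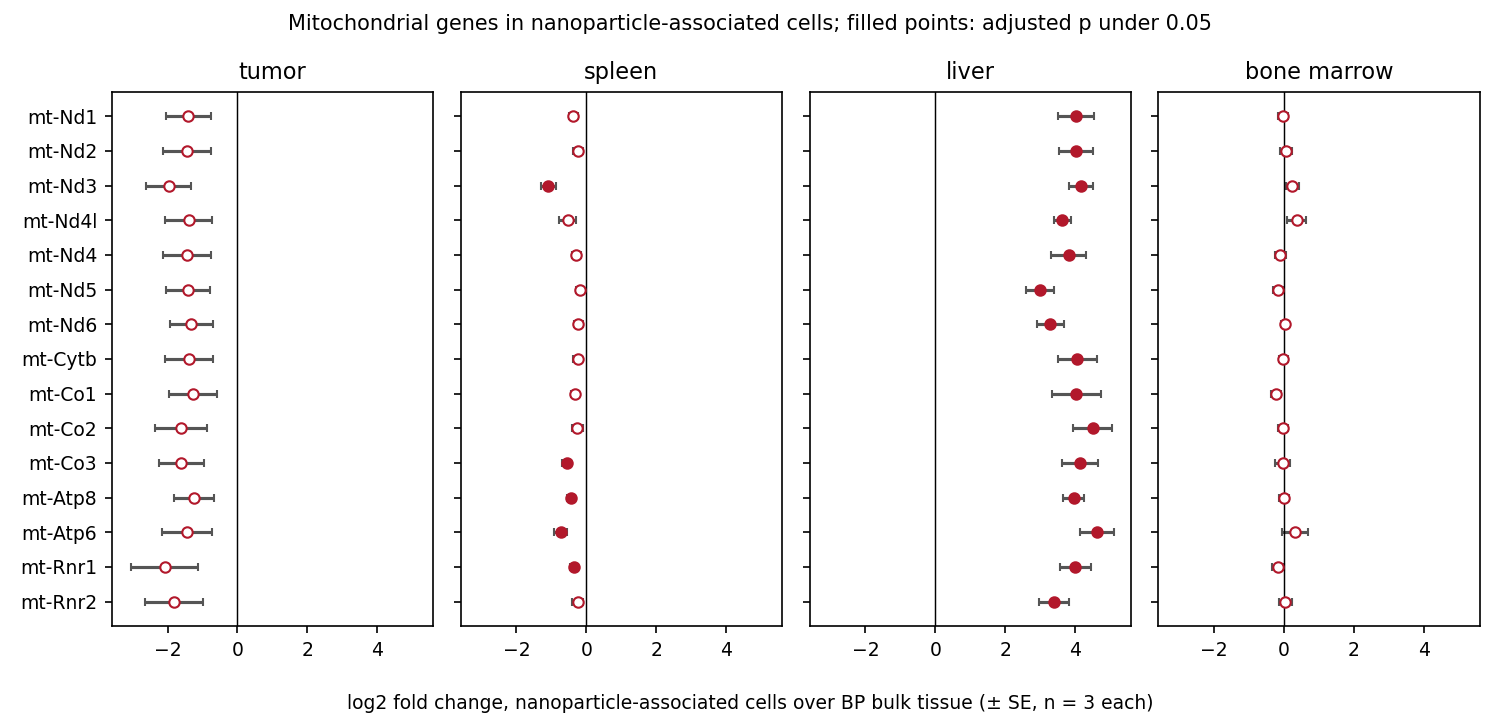
Points give the log2 fold change of each of the 13 mRNAs (grouped by complexes I, III, IV and V) and 2 rRNAs, nanoparticle-associated cells over BP bulk tissue, with bars for the SE from edgeR (n = 3 each), in 4 organs; filled points passed an adjusted p of 0.05. All 15 genes lie between 3.00 and 4.63 in liver, all 15 lie below 0 in tumor without a call, and 5 are called lower in spleen.

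In these libraries the mitochondrial mRNAs did not rise in equal proportion in liver, although no difference in share passed after adjustment. Within the counts of the 13 mRNAs, mt-Nd5 made up 2.66, 2.44 and 2.65% in nanoparticle-associated cells, against 5.39, 4.72 and 5.69% in BP bulk liver. mt-Nd6 made up 0.542, 0.653 and 0.629% in nanoparticle-associated cells, against 1.15, 0.90 and 1.08% in BP bulk liver. Neither gene's groups overlapped. With the copies added, mt-Nd5 averaged 2.16 ± 0.111% in nanoparticle-associated cells and 4.30 ± 0.439% in BP bulk liver, and mt-Nd6 averaged 0.507 ± 0.0476% in nanoparticle-associated cells and 0.850 ± 0.109% in BP bulk liver (SD, n = 3 each). In total, 3 of the 13 mRNAs (mt-Co1, mt-Co2 and mt-Atp6) then took a higher share without overlap and 4 (mt-Nd4l, mt-Nd4, mt-Nd5 and mt-Nd6) a lower one. Each two-sided exact permutation p was 0.10, and the smallest adjusted p was 0.52. Counted in the same way, 3 mRNAs took a higher and 3 a lower share in spleen, 3 and 1 in bone marrow, and 0 and 2 in tumor. With 3 libraries against 3, a share without a difference separates the groups with probability 0.10. Some of the 13 can therefore separate without any difference. The 13 shares are parts of a whole, so a rise in some lowers others. The summed counts of the rRNAs rose less than those of the mRNAs. They were 6.19 ± 0.466% of the mRNA counts in nanoparticle-associated liver cells and 8.76 ± 1.3% in BP bulk liver, without overlap (exact permutation p = 0.10). By gene, mt-Rnr2 had a log2 fold change of 3.40 and mt-Rnr1 one of 4.01, against a median of 4.03 over the 13 mRNAs. The ratio of mt-Rnr2 to mt-Rnr1 was 2.13, 1.73 and 1.88 in nanoparticle-associated cells, against 2.98, 2.93 and 2.66 in BP bulk liver.

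**Figure D4:**
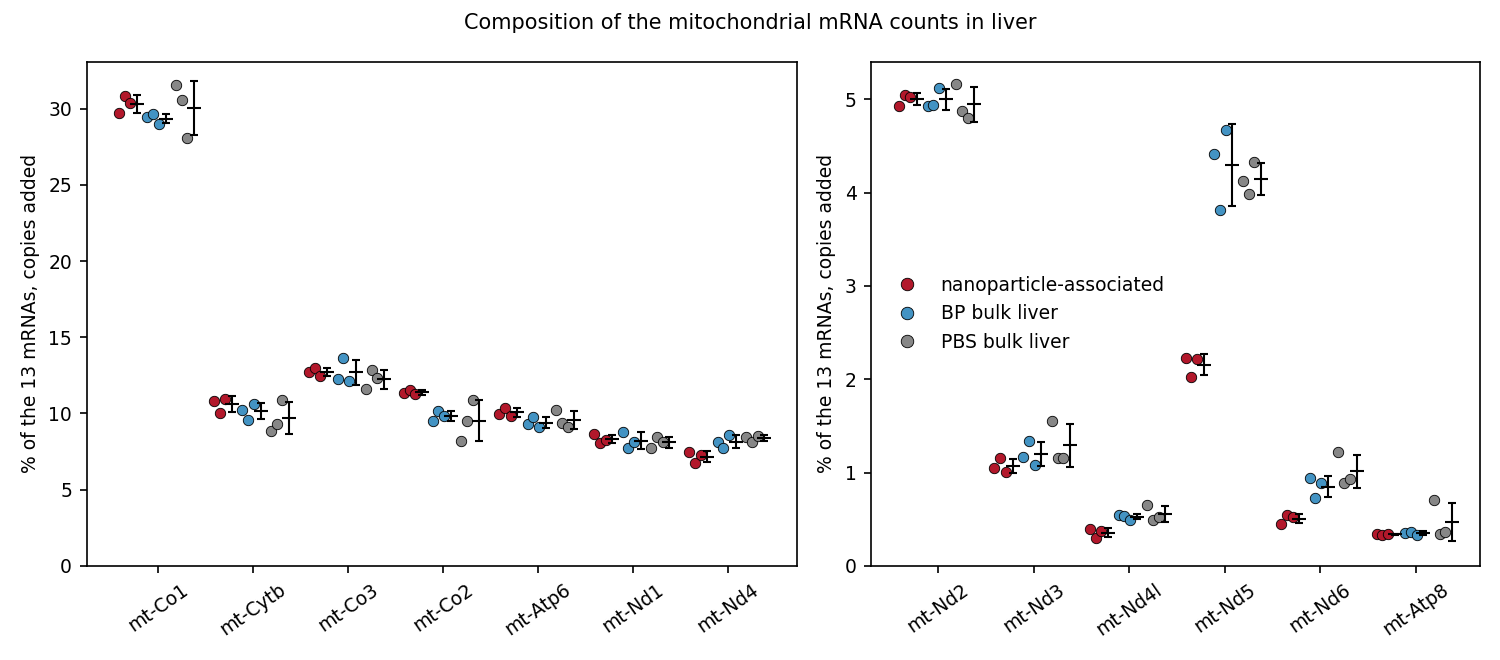
Each point is 1 liver library, and the vertical axes give a gene's percentage of the counts of the 13 mitochondrial mRNAs with the chromosome 1 copies added (larger shares left, smaller ones right); nanoparticle-associated cells, BP bulk and PBS bulk run from left to right within each gene, with mean and SD. The mt-Nd5 share averages 2.16% in nanoparticle-associated cells and 4.30% in BP bulk liver, and mt-Nd6 averages 0.507% in nanoparticle-associated cells and 0.850% in BP bulk liver; 5 further genes also separate the 2 groups, and 6 overlap.

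Nuclear genes for the same complexes moved the other way in liver. Of 76 nuclear subunit genes of complexes I, III, IV and V that were found, 73 were tested there, of which 72 were lower and 1 higher in nanoparticle-associated cells, where 37.5% of all genes tested were called lower. Their median log2 fold change was -1.51, against 0.01 over all genes. All 36 nuclear complex I genes tested fell, with Ndufs1 at -2.15 ± 0.13, Ndufs3 at -2.09 ± 0.11 and Ndufa10 at -2.05 ± 0.14 (SE, log2). All 9 of complex III fell as well, Uqcrfs1, the Rieske iron-sulfur protein, by 2.39 ± 0.14 on the log2 scale. All 11 complex IV genes tested and 16 of 17 of complex V fell. The exception was Atpif1, an inhibitor of the ATP synthase, at 0.91 ± 0.14 (edgeR adjusted p = 0.0002543). The 4 subunits of complex II, which has no mitochondrial gene, also fell, with a median of -2.21.

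Genes that copy, transcribe, process and translate the mitochondrial genome followed the nuclear subunits. Of 43 genes of mitochondrial DNA expression tested, 32 were lower and 0 higher in nanoparticle-associated liver cells, where 37.5% of all genes were called lower and 37.3% higher. Lrpprc, which stabilizes mitochondrial mRNAs, changed by -2.73 ± 0.14, Twnk, the DNA helicase, by -2.52 ± 0.20 and Fastkd1 by -2.35 ± 0.18 (SE, log2). All 12 mitochondrial translation factors tested fell, among them the elongation factors Gfm1 (-2.25 ± 0.11) and Tufm (-1.98 ± 0.12). Among 17 genes of mitochondrial mass and biogenesis, 13 fell and 2 rose. Slc25a4, an ADP/ATP carrier, rose by 2.91 ± 0.13, and Ppargc1a, a coactivator of mitochondrial biogenesis, changed by -2.45 ± 0.36. Of 15 stress and mitophagy genes, 5 rose, including Gdf15 (2.83 ± 0.36) and Atf4 (1.33 ± 0.14), and 8 fell, including Bnip3 (-3.42 ± 0.16); 5 of 15 is no more than the share of all genes called higher.

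**Figure D5:**
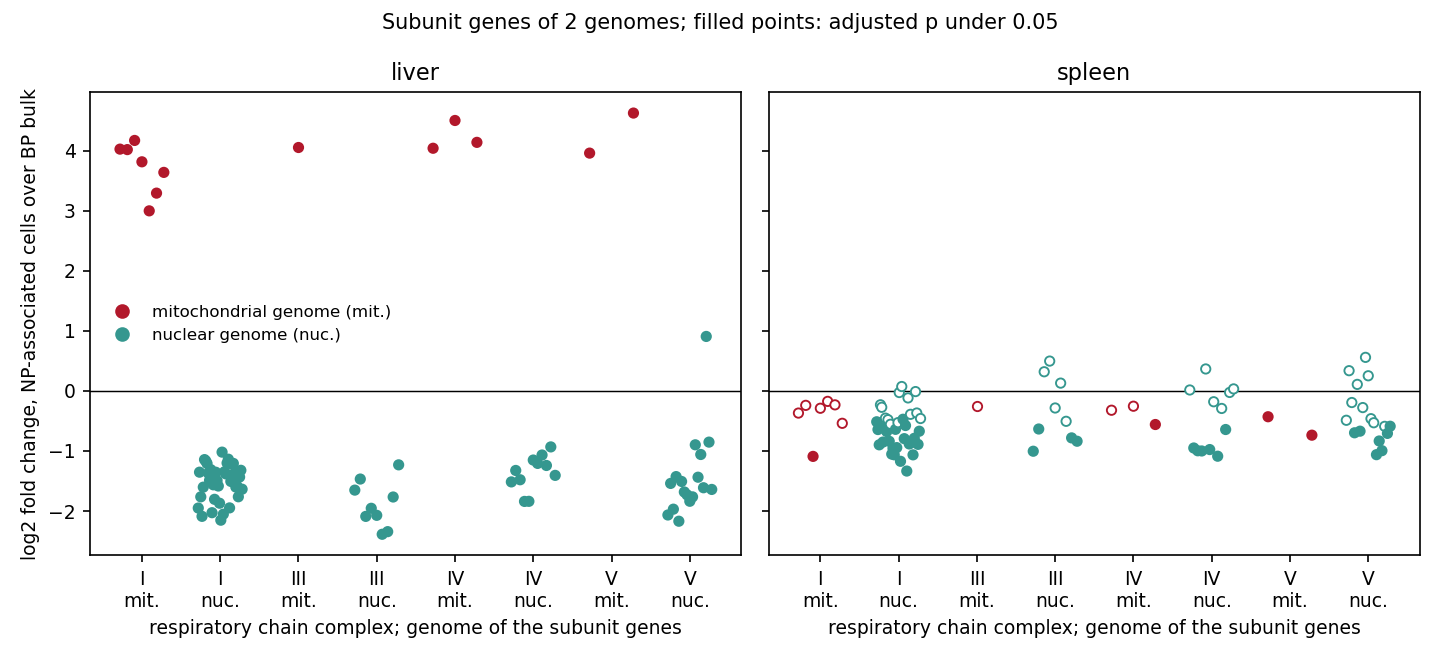
Points give log2 fold changes, nanoparticle-associated cells over BP bulk tissue, of mitochondrial and nuclear subunit genes of complexes I, III, IV and V in liver (left) and spleen (right); filled points passed an adjusted p of 0.05. In liver the 13 mitochondrial genes lie between 3.00 and 4.63 while 72 of 73 nuclear genes are called lower; in spleen points of both genomes lie mostly below 0.

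Markers of cell types differed between the same liver libraries. Their sums use library totals. Mitochondrial genes and copies held 57.1, 68.0 and 66.4% of these totals in nanoparticle-associated cells, against 7.00, 6.89 and 8.49% in BP bulk liver. That larger part lowers the CPM of every other gene in nanoparticle-associated cells. The summed level of 12 hepatocyte genes was 11670 to 22408 CPM in nanoparticle-associated cells, against 94780 to 112384 CPM in BP bulk liver, and 11 of the 12 were called lower. The sum of 10 endothelial genes was 2575 to 5514 CPM in nanoparticle-associated cells, against 339.4 to 457.6 CPM in BP bulk liver, and all 10 were called higher. Of 14 macrophage genes of liver and spleen, 5 were called higher, which is near the 37.3% of all genes called higher, and 0 lower, with sums of 774.4 to 2931 CPM in nanoparticle-associated cells, against 1606 to 2292 CPM in BP bulk liver. All 10 neutrophil, 7 T cell and 6 B cell genes were called higher. The sum of 16 genes known to respond to tissue dissociation was 6433 to 11020 CPM in nanoparticle-associated cells, against 595.6 to 719.3 CPM in BP bulk liver, and all 16 were called higher. No gene of these 7 lists was at 0 in all libraries of a group. The sum of Malat1, Neat1, Kcnq1ot1 and Meg3, long noncoding RNAs found largely in the nucleus, and of Lars2 was 3294 to 3955 CPM in nanoparticle-associated cells, against 763.1 to 946.0 CPM in BP bulk liver. The part of these differences in the mitochondrial result was not tested.

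The change in liver differed from that in the other organs. In 1 fit of 24 libraries, all 13 mRNAs and both rRNAs had a higher effect in liver than the mean effect in tumor, spleen and bone marrow (edgeR interaction test, where 29.4% of 17281 genes were called higher). The differences on the log2 scale ran from 3.48 for mt-Nd5 to 5.14 for mt-Atp6, with a median of 4.51 over the 13 mRNAs and 0.22 over all genes. All 13 were called when any 1 of the 3 mice was left out.

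In spleen the mitochondrial share was lower in nanoparticle-associated cells. It was 3.32, 2.99 and 3.17% in these cells, against 5.14, 4.10 and 4.24% in bulk spleen of the same mice, without overlap. The means were 3.16 ± 0.167% in nanoparticle-associated cells and 4.49 ± 0.566% in BP bulk spleen (SD, n = 3 each; exact permutation p = 0.10, the smallest possible, 0.526 adjusted). All 13 mRNAs had a negative log2 fold change, with a median of -0.32 against -0.04 over all genes. The edgeR test called 4 mRNAs and mt-Rnr1 lower, where 42.2% of 15026 genes were called, 20.2% higher and 22% lower. A count of 4 of 13 mRNAs is no more than the share of all genes called.

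The 4 called mRNAs, mt-Atp8, mt-Atp6, mt-Co3 and mt-Nd3, lie next to each other on the genome, at chrM:7766-9806, with a tRNA gene as the only other gene among them. Other settings, given below, called other numbers of mRNAs, so this run of neighbors describes the main fit only. mt-Nd3 stood at 99.8, 56.3 and 68.8 CPM in nanoparticle-associated spleen cells, against 213.2, 173.1 and 147.7 CPM in BP bulk spleen. Its log2 fold change was -1.09 ± 0.21 (edgeR adjusted p = 0.006833). mt-Atp6 stood at 1088, 962.6 and 1082 CPM in nanoparticle-associated cells, against 2587, 1697 and 1638 CPM in BP bulk spleen (log2 fold change -0.74 ± 0.18, edgeR adjusted p = 0.01652). mt-Co3 had -0.56 ± 0.13, mt-Atp8 -0.43 ± 0.12 and mt-Rnr1 -0.35 ± 0.12. mt-Nd5, by contrast, stood at 1779, 1512 and 1438 CPM in nanoparticle-associated cells, against 2159, 1893 and 1964 CPM in BP bulk spleen, with a log2 fold change of -0.17 ± 0.12 that did not pass. With the mouse as a block, since both libraries of a pair came from 1 mouse, 8 of the 13 mRNAs were called lower, and with library totals alone, which moved the median of all genes to -0.21, 9 were. Leaving out replicate 3 of either group left 2.

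Of the 4 called mRNAs of spleen, 3 have a near-identical nuclear copy. The counts on those copies were called lower as well, with log2 fold changes of -0.81 ± 0.11 for Gm28438, -0.73 ± 0.12 for Gm28437 and -0.42 ± 0.13 for Gm10925. With copies added, mt-Co3 made up 13.2 ± 0.492% of the 13 mRNAs in nanoparticle-associated cells and 16.0 ± 0.627% in BP bulk spleen, while mt-Nd3 made up 1.15 ± 0.116% in nanoparticle-associated cells and 1.63 ± 0.0311% in BP bulk spleen (SD, n = 3 each). Neither overlapped (exact permutation p = 0.10). Nuclear subunit genes in spleen had the sign of the mitochondrial ones: 40 of 74 were lower and 0 higher, with a median log2 fold change of -0.59. Of all genes tested in spleen, 22% were called lower and 20.2% higher, which is the background for this and the following counts. Of complex I, 23 of 36 fell, among them Ndufc2 (-1.33 ± 0.19) and Ndufb3 (-1.17 ± 0.17). The 16 dissociation genes summed to 6954 to 16399 CPM in nanoparticle-associated spleen cells, against 2045 to 2144 CPM in BP bulk spleen, and 15 of them were called higher. The 14 macrophage genes summed to 1231 to 3036 CPM in nanoparticle-associated cells, against 3957 to 5902 CPM in BP bulk spleen, with 6 called lower, and the 10 neutrophil genes had 5 called higher. Their part in the spleen result was not tested.

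In bone marrow no mitochondrial gene passed. The share was 2.40, 1.84 and 1.80% in nanoparticle-associated cells, against 2.40, 1.87 and 2.11% in BP bulk marrow, and the groups overlapped. The median log2 fold change of the 13 mRNAs was -0.03 (edgeR called 0 of 13, 0 at an unadjusted p under 0.05, and DESeq2 called 0), where 7.69% of 13573 genes were called, 4.8% higher and 2.9% lower. None of the 74 nuclear subunit genes tested passed either, with a median of 0.02. Of the shares and ratios of whole libraries, those of single mRNAs aside, only 1 ratio separated the groups. mt-Rnr2 over mt-Rnr1 averaged 3.04 ± 0.145 in nanoparticle-associated cells and 2.58 ± 0.132 in BP bulk marrow (SD, n = 3 each). These did not overlap (exact permutation p = 0.10, 0.526 adjusted). With 3 against 3, a measure without a difference separates the groups with probability 0.10. In liver the ratio was lower than in bulk tissue. Of the 16 dissociation genes, 13 were called higher in marrow.

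In tumor, nanoparticle-associated cells were alike and bulk tumors were not. The share was 4.37, 4.41 and 3.98% in nanoparticle-associated cells, against 19.5, 8.33 and 3.97% in BP bulk tumor. The bulk value of mouse 3 lay at the level of the sorted cells, and those of mice 1 and 2 far above it. The 13 mRNAs had a median log2 fold change of -1.42, and none was called by edgeR (2 had an unadjusted p under 0.05, and DESeq2 called 2), where 9.04% of 14615 genes were called, 5.87% higher and 3.17% lower. Without bulk tumor of mouse 1, the library with brown fat transcripts, the median was -0.43, and the difference in share was -1.90 percentage points, against -6.33 with it. Without bulk tumor of mouse 3, 5 mRNAs were called lower, and with the mouse as a block the median was -0.98. Brown fat genes summed to 31.1, 28.8 and 30.8 CPM in nanoparticle-associated cells, against 1809, 94.2 and 35.3 CPM in BP bulk tumor. Adipocyte genes summed to 54.4, 32.3 and 54.2 CPM in nanoparticle-associated cells, against 15315, 1820 and 507.7 CPM in BP bulk tumor, and skeletal muscle genes to 9.80, 10.1 and 4.12 CPM in nanoparticle-associated cells, against 6.76, 4814 and 5.89 CPM in BP bulk tumor. The 14 macrophage genes summed to 347.8 to 401.3 CPM in nanoparticle-associated cells, against 1007 to 1344 CPM in BP bulk tumor, with 6 of 11 tested called lower. The 16 dissociation genes summed to 9621 to 12766 CPM in nanoparticle-associated cells, against 1132 to 2405 CPM in BP bulk tumor, with 15 called higher. The part of these markers in the difference was not tested. In the fit of 24 libraries all 13 mRNAs had a lower effect in tumor than the mean of spleen, liver and bone marrow (median -2.59, where 15.4% of 17281 genes were called lower and 8.43% higher), but that mean contains the rise in liver. The median over all genes in this contrast was -0.12. The same contrast for spleen, again against a mean that contains the rise in liver, called mt-Nd3, mt-Atp6 and mt-Atp8 lower, where 8.63% of genes were. None of the 3 was called without mouse 2 or without mouse 3.

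Lymph node had a single library of nanoparticle-associated cells. Its share was 5.78% (95% Wilson interval 5.76 to 5.79%), against 5.80% in bulk lymph node of the same mouse, and it has no replicate check.

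Nanoparticles given to the whole animal left the mitochondrial genes of bulk tissue without a called change. The comparison of BP with PBS mice asks what the injection did to each organ, and edgeR called 0 of the 13 mRNAs in each of the 6 organs, as did DESeq2. The background was equally low, with 0.0235% of 12740 genes called in liver and 0.0% in the other 5 organs. In liver the share was 5.80, 5.67 and 7.06% in BP mice, against 6.64, 6.19 and 6.86% in PBS mice. In bone marrow it was 2.40, 1.87 and 2.11% in BP mice, against 2.14, 2.20 and 2.04% in PBS mice. In spleen it was 5.14, 4.10 and 4.24% in BP mice, against 7.11, 5.09 and 4.09% in PBS mice, and in lung 3.81, 3.95 and 5.92%, against 6.55, 4.07 and 4.23%. The groups overlapped in all of these organs. The medians of the 13 log2 fold changes were -0.14 in liver, -0.004 in bone marrow, -0.26 in spleen and -0.11 in lung, and an unadjusted p under 0.05 was reached by 3 mRNAs in liver and by 0 in the other 3 organs. The 3 in liver, mt-Nd3, mt-Nd4l and mt-Atp6, at -1.46, -1.50 and -0.99, are genes whose counts in PBS liver of mouse 1 were divided differently between gene and copy, and none had an unadjusted p under 0.05 with the copies added.

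The remaining organs had wider differences that rest on single mice. In tumor the share was 19.5, 8.33 and 3.97% in BP mice, against 4.06, 3.06 and 3.06% in PBS mice, a difference of 7.19 percentage points with overlap (exact permutation p = 0.20), or 2.76 points without BP tumor 1. The 13 mRNAs had a median log2 fold change of 1.87, each with a positive sign, and 9 had an unadjusted p under 0.05, but the smallest adjusted p was 0.797. Without BP tumor 1 the median was 0.96. Markers of other tissues also differed between these tumors. The 8 adipocyte genes summed to 15315, 1820 and 507.7 CPM in BP tumors 1, 2 and 3, against 130.5, 29.6 and 334.7 CPM in PBS tumors, without overlap. Brown fat genes summed to 1809, 94.2 and 35.3 CPM in BP tumors 1, 2 and 3, against 21.7, 26.6 and 62.4 CPM in PBS tumors. Skeletal muscle genes summed to 6.76, 4814 and 5.89 CPM in BP tumors, against 7.38, 15.9 and 12.6 CPM in PBS tumors. The rRNAs separated the groups: together they held 1.99, 0.406 and 0.298% of counts in BP tumors, against 0.227, 0.192 and 0.180% in PBS tumors (exact permutation p = 0.10, 0.526 adjusted). In nanoparticle-associated tumor cells they held 0.268, 0.287 and 0.280%, below each of the BP bulk tumors. Nuclear subunit genes had a median of 0.88 in the same comparison, with 0 of 75 called. Set against the mean effect in the other 5 organs, in 1 fit of 36 bulk libraries, 12 of the 13 mRNAs and both rRNAs had a higher BP effect in tumor (median 2.20, where 3.21% of 18613 genes were called higher). That call was lost for all 13 mRNAs without BP mouse 1, PBS mouse 2 or PBS mouse 3, and 1 was left without BP mouse 2. The part of fat and muscle transcripts in it was not tested.

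In lymph node the share was 7.64, 5.80 and 8.81% in BP mice, against 8.79, 28.6 and 11.6% in PBS mice, and PBS mouse 2 stood far above the other 5. The median log2 fold change of the 13 mRNAs was -1.55, with 0 called by edgeR and 3 at an unadjusted p under 0.05. Brown fat genes summed to 146.5, 89.8 and 324.6 CPM in lymph nodes of BP mice, against 358.6, 2809 and 970.6 CPM in those of PBS mice. Without PBS mouse 2 the difference in share was -2.76 percentage points, against -8.91 with it, and the median log2 fold change was -0.43. Set against the other 5 organs, the BP effect in lymph node was called for 0 mRNAs by edgeR (11 at an unadjusted p under 0.05) and for 6, all lower, by DESeq2. Adipocyte genes summed to 2090, 263.9 and 9054 CPM in lymph nodes of BP mice, against 2852, 11599 and 8245 CPM in those of PBS mice. The part of fat transcripts in this difference was not tested. Averaged over 6 organs per mouse, the share was 7.37, 4.95 and 5.35% in BP mice, against 5.88, 8.21 and 5.30% in PBS mice (exact permutation p = 0.60).

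Organs of PBS mice differed in their mitochondrial share. In PBS mice it averaged 2.12 ± 0.0836% in bone marrow, 3.39 ± 0.579% in tumor, 4.95 ± 1.39% in lung, 5.43 ± 1.54% in spleen, 6.56 ± 0.338% in liver and 16.3 ± 10.7% in lymph node (SD, n = 3 each). Bone marrow lay below tumor without overlap, tumor ended just below the lowest lung library (4.06 against 4.07%), and lung, spleen and liver overlapped their neighbors in this order. Lymph node lay above liver in each of its 3 mice, at 28.6% in mouse 2 and at 8.79 and 11.6% in mice 1 and 3.

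Each organ was then set against the mean of the other 5 in the 18 PBS libraries, where libraries of 1 mouse are not independent. In bone marrow all 13 mRNAs and mt-Rnr2 were called lower, where 57.9% of 17696 genes were called, 27.5% higher and 30.4% lower. Their log2 differences had a median of -1.71, against -0.18 over all genes, and ran from -2.94 for mt-Nd3 to -1.25 for mt-Nd5. Without PBS mouse 3, 5 of the 13 were called. In liver 12 of 13 mRNAs and both rRNAs were called higher, where 64.3% of genes were called and 29.0% were higher, with a median of 1.48 against -0.37 over all genes. With library totals alone, where the median over all genes was -1.38, 3 of the 13 were called, and without PBS mouse 3 the count was 7. mt-Co2, at 0.55 ± 0.45, was the one not called. In PBS liver of mouse 1 the counts of this pair went mostly to the copy. There mt-Co2 stood at 817.4 CPM, against 4318 and 5090 CPM in PBS livers 2 and 3. The cause of the missing call was not tested. In lymph node all 13 mRNAs and both rRNAs were called higher (median 2.04, where 33.8% of genes were called and 20.2% were higher). This count depended on PBS mouse 2. Lymph node of that mouse held the most brown fat transcripts, and their part in the count was not tested. Without PBS mouse 2 that count was 2 (mt-Nd1 and mt-Nd2) and the median was 0.78. In tumor mt-Nd2, mt-Nd4 and mt-Nd6 and both rRNAs were called lower, where 50.7% of genes were called, 28% higher and 22.6% lower, and 6, 1 and 0 of the 13 mRNAs were called without PBS mouse 1, 2 and 3. DESeq2 called all 13. In lung, edgeR and DESeq2 called 0 of the 13 (1 at an unadjusted p under 0.05, and 2 called without PBS mouse 1), and in spleen both called 0 (0 at an unadjusted p under 0.05), where 50.6% of genes were called in lung (29.2% higher) and 47.0% in spleen (25.3% higher). In the same fit, nuclear subunit genes had medians of 1.21 in liver (67 of 76 higher), 0.94 in lymph node (45 higher) and -0.90 in bone marrow (48 lower).

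Across the 12 bulk group means, the nuclear genes whose level was ordered most like the summed 13 mRNAs were ranked among 11818 genes. Coq10a, which binds coenzyme Q, had the highest Spearman correlation at 0.958, followed by Ndufs4 of complex I (0.951), Atp5k of complex V (0.944), Acacb and 2310061I04Rik (both 0.923), and Mcur1 and Ndufa6, which tied for the sixth place at 0.909. These are descriptions over 12 points that share mice and library totals. Coq10a stood at 18.8 CPM in BP tumor and 33.0 CPM in PBS lymph node, against 7.88 CPM in BP bone marrow and 9.11 CPM in PBS bone marrow.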

How the data were processed

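Total RNA of 49 libraries had been sequenced with the submitters' Illumina preparation, and the unit deposited by the authors was the expected count per gene. Per the submitters' processing notes the tools were FastQC 0.11.9, cutadapt 3.5, STAR 2.7.9a and RSEM 1.3.1 with mm10; neither the annotation release nor the strand setting is named there. Reads that match several genes are split by RSEM, and 4.64 to 7.92% of values were not whole; they were rounded for the tests. Symbols were matched for 55141 of 55487 genes through GENCODE M21.

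Shares and CPM use the library total. Each comparison was fitted on the whole table with the quasi-likelihood test of edgeR 4.0.16 in R 4.3.3 (normalization by TMM, genes kept by filterByExpr at its minimum count of 10, p-values adjusted by Benjamini-Hochberg, threshold 0.05), and DESeq2 1.42.0 was an alternative. The SE is the log2 fold change over the root of its F. Shares and ratios were tested with exact permutation tests (scipy 1.17.1). The edgeR step was also run on simulated counts, with independent libraries and the same spread in every comparison. The real comparisons differed in spread and some shared mice, so that run does not measure their error rates.

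Nuclear copies were genes with at least 90% identity and 1000 counts. All 15 expressed members are named, with up to 3 nuclear genes per list, direction and comparison by size of change past the threshold, and the 6 genes most like the 13 mRNAs (7 with a tie). The members and lists were chosen with earlier results of these data known. Nanoparticle-associated and BP bulk libraries of 1 number came from the same mouse per the labels, although the correlations of their deviations ran from -0.25 to 0.74. The fits reported had no block.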

Additional observations from a re-analysis of the deposited data

Results flagged for a closer look

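The effect of being nanoparticle-associated, relative to bulk tissue, differed between organs by a test of the difference itself. The number of mitochondrial mRNAs with a different effect than the mean of the other 3 organs was 13 of 13 in liver (higher, where 29.4% of all genes were), 13 in tumor (lower, where 15.4% were) and 3 in spleen (lower, where 8.63% were). For tumor and for spleen, the mean of the other 3 organs contains the rise in liver. In tumor alone, edgeR called 0 of the 13 mRNAs between nanoparticle-associated cells and BP bulk tissue. The 3 in spleen became 0 without mouse 2 or without mouse 3. The effect of BP, relative to PBS, differed in tumor from the mean of the other 5 organs for 12 of 13 mRNAs (higher, where 3.21% of all genes were). That count ran from 0 to 13 when 1 mouse was left out, with 0 without BP mouse 1, PBS mouse 2 or PBS mouse 3, and was 6 with a replicate block. A further signal lies outside the mitochondrial genes: the 7 chromosome 1 copies held 16.82% of the counts of mitochondrial genes and copies.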

How the results depend on the processing

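The liver result, 13 of 13 mRNAs higher in nanoparticle-associated cells, was called under each scaling, filter and test tried and with each replicate left out (median log2 fold change 3.14 to 4.27), and no mRNA was called between BP and PBS mice in any organ under any of them. Other counts of called mRNAs moved. DESeq2 called 2 in tumor for nanoparticle-associated cells, 13 in PBS tumor against the other organs, 6 for the spleen difference of the nanoparticle-associated effect and 6 for the lymph node difference of the BP effect. RLE size factors called 6 in PBS tumor, and library totals 9 in nanoparticle-associated spleen and 3 in PBS liver. A replicate block called 8 in nanoparticle-associated spleen and 6, against 12, for the BP effect in tumor. In BP against PBS the numbers mark different mice, whose deviations correlated at -0.27 to 0.47, and the block changed no other call count by over 1.5 times. Leaving out 1 replicate gave 0 to 5 in nanoparticle-associated tumor, 2 to 4 in spleen, 0 to 6 in PBS tumor, 0 to 2 in lung, 2 to 13 in lymph node, 7 to 12 in liver, 5 to 12 in bone marrow, 10 to 13 and 0 to 4 for the nanoparticle-associated effect in tumor and spleen, and 0 to 13 for the BP effect in tumor. The BP minus PBS share in bone marrow was 0.0015 percentage points, -0.0265 for the 13 mRNAs alone, -0.0213 over protein-coding genes, and -0.137 to 0.131 with a replicate left out. That of lung ran from -1.07 to 0.41 and that of nanoparticle-associated minus bulk marrow from -0.304 to 0.0256. The cause of these moves was not tested. The planned share of the opposite strand was not run apart from mt-Nd6, its one mRNA. Groups of 3 limit every exact test to a p of 0.10, and reads shared with the copies limit the values of single genes. Adding the copies to their genes, an alternative chosen after seeing the data, moved no count by over 1.5 times.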
